A study of Mus musculus with 48 samples.

Results

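Of the genes that serve nitric oxide production in macrophages, 7 were followed through every group of the series. They were Nos2, Gch1, Slc7a2, Ass1, Asl, Arg2 and Odc1, matched by gene symbol, which makes 7 of 51789 gene IDs in the count table. They were picked by name after it was seen that Nos2 stood low even in cells given LPS and IFN-γ, so the levels of M1 cells against M0 cells are given as a description, without a test. All 7 genes were kept in the account, whether or not they passed the filter on low counts.

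Macrophages of 8 populations were treated for 4 h with 10 µM AP-3-84, a compound the labels name without describing, or with its vehicle DMSO, and RNA was counted by 3′ mRNA sequencing in 3 libraries per group. The ascites cells were F4/80+ cells from the peritoneum of mice with the genotype label B6(Cg)-Tyrc-2J/J that bore ID8, an ovarian tumour line of the mouse, and were washed out on day 45. The thio cells were F4/80+ peritoneal cells of wild-type C57BL/6 mice on day 4 from an intraperitoneal dose of 1 ml of 3% thioglycollate. Both peritoneal populations were taken with beads, and they differ in genotype label as well as in tumour, with C57BL/6 as the strain label of every library. The other 6 populations were grown from bone marrow of C57BL/6 mice, wild-type (WT) or p53 knockout (KO), through 6 days with M-CSF at 10 ng/mL. M0 cells got no more than that. M1 cells had LPS at 100 ng/mL plus IFN-γ at 50 ng/mL for another 24 h, and M2 cells had IL-4 and IL-13, each at 10 ng/mL, for the same time. WT and KO follow the titles, descriptions and series design, since the genotype field reads wild-type for all 36 of these libraries. No label tells what stretch of p53 was deleted, whether a library is 1 animal or a pool, or whether the 3 libraries of a group are separate cultures, so that p-values measure the spread between libraries, which may be technical. Adjusted p-values are from the quasi-likelihood test of edgeR with Benjamini-Hochberg adjustment over all genes tested, unless another tool is named, and a gene is called, or said to rise or fall, where that value is under 0.05.

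Inducible nitric oxide synthase, the product of Nos2, makes nitric oxide and citrulline from arginine and is the classic enzyme of mouse macrophages activated by LPS and interferon-γ. It needs tetrahydrobiopterin, whose synthesis starts with the Gch1 enzyme, and arginine, which enters through cationic amino acid transporters such as that of Slc7a2 or is rebuilt from citrulline by the Ass1 and Asl enzymes. Arginases compete for the same arginine, the cytosolic one made by Arg1 and the mitochondrial one by Arg2, and their product ornithine is turned into polyamines by the Odc1 enzyme.

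The promoters of Gch1, Ass1 and Odc1 are shown because the RefSeq entries used, on GRCm38.p6, held only these 3 of the 7 genes. Each was limited to bases upstream of the annotated starts and is written 5′ to 3′ on the strand of the gene. Gch1 is at chr14:47189414-47189663 (minus strand, 250 bases, 59.2% G or C). Ass1 is at chr2:31470020-31470206 (plus strand, 187 bases, 75.4% G or C). Odc1 is at chr12:17544623-17544793 (plus strand, 171 bases, 77.2% G or C). Capitals mark the matches found.
Gch1: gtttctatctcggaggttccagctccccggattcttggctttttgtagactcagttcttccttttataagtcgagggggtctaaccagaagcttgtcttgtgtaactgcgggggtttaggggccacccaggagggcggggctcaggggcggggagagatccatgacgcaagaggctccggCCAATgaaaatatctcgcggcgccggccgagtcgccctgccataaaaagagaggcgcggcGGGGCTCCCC
Ass1: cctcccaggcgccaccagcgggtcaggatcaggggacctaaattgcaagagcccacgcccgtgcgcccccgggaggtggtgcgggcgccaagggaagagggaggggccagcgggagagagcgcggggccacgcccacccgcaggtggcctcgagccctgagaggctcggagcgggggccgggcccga
Odc1: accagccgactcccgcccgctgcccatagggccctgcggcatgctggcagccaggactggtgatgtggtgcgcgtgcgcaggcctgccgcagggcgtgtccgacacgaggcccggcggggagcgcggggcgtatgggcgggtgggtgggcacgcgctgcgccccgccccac
Searched on both strands were CCAAT, the interferon-γ activated site TTCNNNGAA, a pair of GAAA set 2 bases apart as in interferon-stimulated response elements, the E-box CACGTG, the antioxidant core TGACNNNGC, the cyclic AMP element TGACGTCA and a degenerate NF-κB decamer. Gch1 held 1 CCAAT and 1 NF-κB match, which ends at the annotated start, and these occur in 33.8% and 7.25% of 32851 promoters over 250 bases. No motif searched was found in the Ass1 and Odc1 stretches. Over 171 to 250 bases, the shares of promoters holding each were 23.4% to 33.8% for CCAAT, 4.75% to 7.25% for the NF-κB decamer, 5.01% to 7.02% for TTCNNNGAA, 2.12% to 2.98% for the GAAA pair, 3.41% to 6.02% for CACGTG, 6.23% to 10.2% for TGACNNNGC and 0.502% to 1.55% for TGACGTCA. No match overlaps another. The matches are letters and were not tested as binding sites.

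The 12 peritoneal libraries held 15532373 to 19417581 counts each, and the 36 bone marrow-derived libraries, at 3081707 to 4645148, were shallower. The sources were fitted apart and are not compared. Trp53, the deleted gene, stood at 4.79 to 13.2 CPM (counts scaled to library depth) in 18 WT and 2.7 to 9.11 CPM in 18 KO libraries, and a 3′ tag outside a deleted stretch would not show the deletion. Its targets Cdkn1a (555 to 1120 against 34.1 to 292 CPM) and Phlda3 (9.17 to 40.5 against 0 to 1.31 CPM) did not overlap between genotypes. The macrophage markers Adgre1 (encoding F4/80), Csf1r, Cd68 and Itgam were at 193, 843, 350 and 205 CPM or more in every library. Mertk and Fcgr1, also on that marker list, went down to 20.4 and 3.06 CPM. Among bone marrow-derived libraries, WT_M2 vehicle replicate 1 stood apart, with 6960 CPM summed over 20 M1 markers against 1400 and 760 CPM in replicates 2 and 3, and 3710 CPM over 6 neutrophil markers against 540 and 410 CPM. KO_M2 vehicle replicate 3 had 3030 CPM of the same neutrophil markers, against 316 and 584 CPM. KO_M0 AP-3-84 replicates 1 and 2 had 61300 and 55400 CPM over 6 housekeeping genes, against 31800 CPM in replicate 3 and 22600 to 26600 CPM in KO_M0 vehicle. Where leaving out 1 of these libraries ended a call, this is said beside it. CPM values below are levels scaled by TMM (a scaling that sets aside the most changed genes), and a level of one gene is set only against the same gene.

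**Figure D1:**
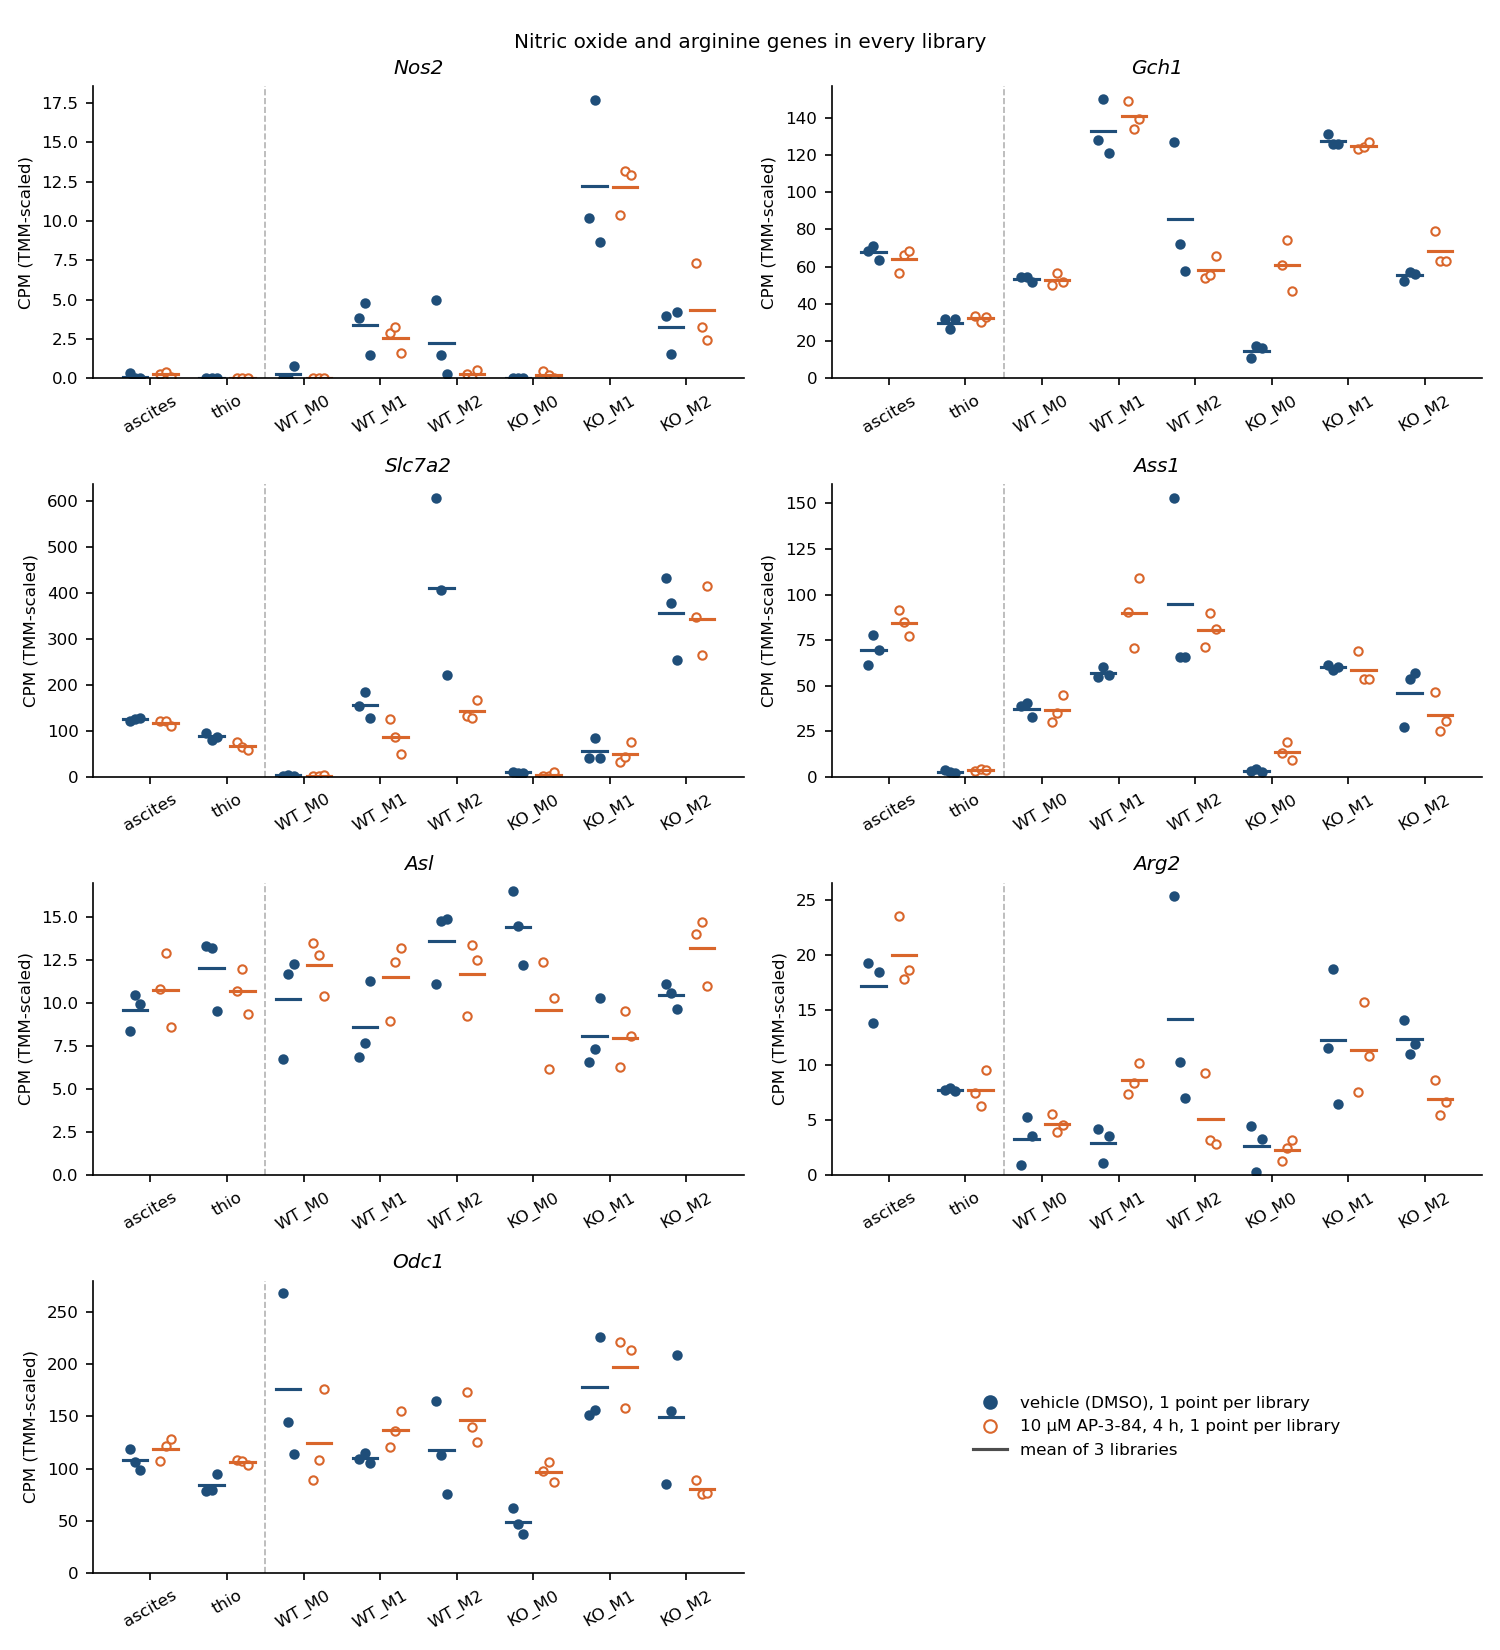
Level of each of the 7 genes in every library, in TMM-scaled CPM on a linear axis that starts at 0 and differs between panels. Filled points are vehicle and open points AP-3-84 libraries, bars are means of 3, and the dashed line parts the peritoneal from the bone marrow-derived libraries. Nos2 is above 5.01 CPM in the 6 KO_M1 libraries and in 1 KO_M2 library given AP-3-84, while Slc7a2 is highest in M2 cells.

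Nos2 (chromosome 11, 78920787 to 78960254, plus strand, in GRCm38) was close to absent except after polarization. In WT_M0 vehicle libraries it had 0, 0 and 3 counts, in WT_M1 13, 18 and 6 counts, and in WT_M2 18, 5 and 1 counts. In KO cells the vehicle counts were 0, 0 and 0 in M0, 37, 70 and 39 in M1, and 15, 7 and 17 in M2. The 3 KO_M1 libraries lay above all other vehicle libraries, while WT_M1, WT_M2 and KO_M2 overlapped. Pooled over 3 libraries, that was 12.1 CPM in KO_M1 (95% exact Poisson interval 10.2 to 14.2), 3.33 CPM in WT_M1 (2.35 to 4.59), 3.19 CPM in KO_M2 (2.27 to 4.36), 2.38 CPM in WT_M2 (1.53 to 3.55) and 0.239 CPM in WT_M0 (0.0493 to 0.698). A count of 0 in KO_M0 allows up to 0.279 CPM. These intervals cover counting error only.

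Set against M0, Nos2 in WT_M1 was 13.9 times higher by pooled counts (counting interval 4.42 to 70.7), and in KO_M1 at least 43.4-fold higher, against a floor of 3 counts over the KO_M0 group. The ratio of M1 to M2 was 1.4 in WT (counting interval 0.814 to 2.44) and 3.8 in KO (2.65 to 5.55). In WT cells this counting interval spans equal levels, but it leaves out the spread between libraries. WT_M2 vehicle ran from 0.317 to 5.01 CPM (median 1.51 CPM), with most counts in replicate 1, which stood apart. WT_M1 vehicle ran from 1.51 to 4.77 CPM (median 3.87 CPM). The part of that replicate in the ratio was not tested. The M1 label itself was borne by other genes: of 20 M1 markers such as Il1b, Cxcl9 and Ptgs2, from a list without Nos2, 18 were measured, and 12 were at least 2-fold higher in WT_M1 than in WT_M0 and 16 in KO_M1 than in KO_M0. The shares of all genes past that fold were 6.18% and 15.9%. In bulk RNA, fewer cells expressing a gene and less RNA per cell cannot be told apart.

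Between genotypes, Nos2 stood at 12.2 ± 4.82 CPM in KO_M1 and 3.38 ± 1.68 CPM in WT_M1 (SD, n = 3), and the groups did not overlap. M2 against M0, it was at least 11.4-fold higher by pooled counts in KO cells and 9.98 times higher in WT cells (counting interval 3.03 to 51.8), where the libraries overlapped and 18 of the 24 WT_M2 counts were in replicate 1. These values are a description, without a test. After AP-3-84, Nos2 had 0, 0 and 0 counts in WT_M0, 9, 13 and 5 in WT_M1, 1, 0 and 2 in WT_M2, 2, 1 and 0 in KO_M0, 41, 51 and 61 in KO_M1, and 23, 12 and 9 in KO_M2. These overlapped the vehicle counts in all 6 populations. In WT_M2 the log2 fold change was -2.89 (SE 0.971). Nos2 was called in none of the 6, but these values too are a description, without a test.

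In peritoneal libraries, which are deeper, Nos2 had 6, 0 and 0 counts in ascites vehicle and 5, 7 and 2 in ascites AP-3-84 libraries. None was seen in 6 thio libraries of 98763934 counts in all, which allows up to 0.0313 CPM. Nos2 was under the filter there and was not tested. It passed the filter of bone marrow-derived libraries (2.67 CPM in at least 3 libraries) through 14 libraries of M1 and M2 groups, 6 of them KO_M1. A gene with this pattern enters the fit only because it is high in those groups. So no test of Nos2 between vehicle groups is given, and its lack of a call after AP-3-84 is no test either.

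Gch1 (chromosome 14, 47153895 to 47189413, minus strand), for the first enzyme of tetrahydrobiopterin synthesis, was measured well in every population. It stood at 54.3, 54.5 and 51.9 CPM in WT_M0 vehicle libraries and at 128, 150 and 121 CPM in WT_M1. In KO cells it stood at 11, 17.2 and 16.5 CPM in M0 and at 131, 126 and 126 CPM in M1. Both M1 groups overlapped each other and lay above their M0 groups, so that the described log2 difference from M0 was 1.31 in WT and 3.10 in KO (SE 0.19 and 0.211). In M2 the levels were 127, 72.4 and 57.9 CPM in WT and 52.5, 57.4 and 56.1 CPM in KO. Gch1 rose in M2 against M0 in KO (log2 fold change 1.89 ± 0.208 SE, adjusted p 2.69e-08) and in WT (log2 fold change 0.68 ± 0.19 SE, adjusted p 0.00812). The WT call was lost without WT_M2 vehicle replicate 1 (log2 fold change 0.27, adjusted p 0.265). KO_M0 cells had less Gch1 than WT_M0 cells (log2 fold change -1.85 ± 0.208 SE, adjusted p 1.84e-07), a call no left-out library ended.

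Slc7a2 (chromosome 8, 40862396 to 40922308, plus strand), for a cationic amino acid transporter with a high-affinity and a low-affinity splice form, which gene counts do not separate, ran from 2.56 to 607 CPM over the vehicle libraries. WT_M0 vehicle libraries held 2.69, 4.3 and 2.56 CPM, WT_M1 155, 184 and 129 CPM and WT_M2 607, 406 and 221 CPM. KO_M0 held 11, 9.23 and 7.57 CPM, KO_M1 40.7, 84.8 and 40.4 CPM and KO_M2 434, 379 and 255 CPM. Within each genotype the order was M2, M1 and M0 without overlap. Against M0, Slc7a2 rose in WT_M2 (log2 fold change 7.00 ± 0.55 SE, adjusted p 7.67e-10) and in KO_M2 (log2 fold change 5.26 ± 0.491 SE, adjusted p 1.05e-08), and without WT_M2 vehicle replicate 1 the first was 6.60. The described difference of M1 from M0 was 5.60 in WT and 2.57 in KO on the log2 scale. KO against WT, Slc7a2 was higher in M0 (log2 fold change 1.53 ± 0.585 SE, adjusted p 0.0452) and lower in M1 (log2 fold change -1.5 ± 0.405 SE, adjusted p 0.017). The M0 call was lost without any one of the 6 libraries (adjusted p 0.0554 to 0.135) and with the replicate number as a block (adjusted p 0.0561). The M1 call was lost without KO_M1 vehicle replicate 1 or 3 or WT_M1 vehicle replicate 2 (adjusted p 0.0871, 0.0988 and 0.069).

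Ass1 (chromosome 2, 31470207 to 31520672, plus strand), for the enzyme that joins citrulline to aspartate, was low in 2 populations. WT vehicle libraries held 39, 40.4 and 32.7 CPM in M0, 54.5, 60.1 and 55.6 CPM in M1, and 153, 66 and 65.5 CPM in M2. KO vehicle libraries held 3.41, 4 and 2.43 CPM in M0, 61.5, 58.7 and 60.3 CPM in M1, and 27.1, 53.6 and 57 CPM in M2. KO_M0 thus lay far under WT_M0 (log2 fold change -3.51 ± 0.367 SE, adjusted p 1.27e-07), while the M1 groups of the genotypes overlapped. Against M0, Ass1 rose in KO_M2 (log2 fold change 3.8 ± 0.365 SE, adjusted p 3.37e-09) and in WT_M2 (log2 fold change 1.35 ± 0.281 SE, adjusted p 0.000679), and the WT value was 0.80 without WT_M2 vehicle replicate 1 (adjusted p 0.0253). The described difference of M1 from M0 was 4.19 in KO and 0.60 in WT. Ass1 was lower in KO_M2 than in WT_M2 (log2 fold change -1.05 ± 0.278 SE, adjusted p 0.0293), a call lost without WT_M2 vehicle replicate 1 (-0.53, adjusted p 0.273) and without any one KO_M2 vehicle library (adjusted p 0.0582 to 0.0889). Of 30-base words in the last 500 bases of Ass1 transcripts, 36.1% occur in transcripts of other annotated genes. The gene sharing most of them, Gm5424, had 1 count in all 48 libraries, and no other sharing gene was looked at.

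Asl (chromosome 5, 130011258 to 130029247, minus strand), for the enzyme that completes the return of citrulline to arginine, was called in no comparison. Over the 6 bone marrow-derived vehicle groups its means ran from 8.08 ± 1.96 CPM in KO_M1 to 14.4 ± 2.15 CPM in KO_M0 (SD, n = 3), and each group overlapped its neighbour in that order. Its log2 fold changes ran from -0.58 to 0.41 over the 8 AP-3-84 comparisons, and it was called in none of 18 tested comparisons. A call missed does not show equal levels: KO_M0 vehicle libraries held 16.5, 14.5 and 12.2 CPM against 6.59, 7.34 and 10.3 CPM in KO_M1, and this difference of -0.82 on the log2 scale (SE 0.272) belongs to the contrast that was not tested.

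Arg2 (chromosome 12, 79130777 to 79156301, plus strand), for the mitochondrial arginase, was near 3 CPM in M0 cells of both genotypes, with 0.897, 5.26 and 3.58 CPM in WT and 4.45, 0.308 and 3.25 CPM in KO. In M1 it stood at 4.17, 1.06 and 3.52 CPM in WT and at 11.5, 18.7 and 6.47 CPM in KO. In M2 it stood at 25.3, 10.3 and 6.97 CPM in WT and at 14.1, 11 and 11.9 CPM in KO. Arg2 rose in M2 against M0 in WT (log2 fold change 2.14 ± 0.565 SE, adjusted p 0.00586) and in KO (log2 fold change 2.16 ± 0.584 SE, adjusted p 0.0042). Without WT_M2 vehicle replicate 1 the WT value was 1.40 (adjusted p 0.0903). Arg2 was higher in KO_M1 than in WT_M1 (log2 fold change 2.06 ± 0.58 SE, adjusted p 0.019), a call lost without KO_M1 vehicle replicate 2 or WT_M1 vehicle replicate 2 (adjusted p 0.0738 and 0.109). The 3′ end of Arg2 overlaps that of Vti1b on the opposite strand, and no source used here says whether counting kept the strands apart. Arg1, the cytosolic arginase and the usual M2 marker, rose far more in M2, with 3.89 ± 2.03 CPM in WT_M0, 1460 ± 679 CPM in WT_M2, 1.46 ± 1.32 CPM in KO_M0 and 2090 ± 888 CPM in KO_M2 (SD, n = 3, M2 against M0 log2 fold changes 8.52 and 10.43, adjusted p 1.73e-09 and 3.15e-10). Arg1 was also higher in M1 than in M0, by a described log2 difference of 3.57 in WT and 5.9 in KO (SE 0.618 and 0.724).

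Odc1 (chromosome 12, 17544794 to 17551505, plus strand), for the enzyme that opens polyamine synthesis, was spread widely within groups. WT vehicle libraries held 268, 145 and 114 CPM in M0, 109, 115 and 105 CPM in M1, and 165, 113 and 75.4 CPM in M2. KO vehicle libraries held 62.4, 46.8 and 37.6 CPM in M0, 151, 156 and 226 CPM in M1, and 84.9, 155 and 209 CPM in M2. KO_M0 was the one group under all the others. Odc1 was lower in KO_M0 than in WT_M0 (log2 fold change -1.84 ± 0.314 SE, adjusted p 6.78e-05) and rose in KO_M2 against KO_M0 (log2 fold change 1.61 ± 0.312 SE, adjusted p 0.000184). In WT_M2 against WT_M0 it was not called (log2 fold change -0.58 ± 0.301 SE, adjusted p 0.171). The snoRNA Gm22748 lies within Odc1 on the same strand, with 5 to 172 counts per bone marrow-derived library.

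Of the 6 genes other than Nos2, 4 rose and 0 fell in M2 against M0 in WT cells, where 23.4% of 11779 genes were called, 12.7% higher and 10.7% lower. In KO cells 5 of the 6 rose and 0 fell, where 38% were called, 20.1% higher and 18% lower. These 5 KO calls were kept without each library in turn, KO_M2 vehicle replicate 3 included. Of 14 measured M2 markers such as Retnla and Mrc1, 11 rose in M2 in WT and 11 in KO. Without WT_M2 vehicle replicate 1, Slc7a2 and Ass1 rose in WT and Odc1 fell (log2 fold change -0.90 ± 0.328 SE, adjusted p 0.0491). In M1 against M0, Gch1 and Slc7a2 were at least 2-fold higher in WT, and Gch1, Slc7a2, Ass1, Arg2 and Odc1 in KO. Nos2 was past that fold in both, but the genes were picked on its M1 level, so it is not counted. Of all genes 6.18% and 15.9% were at least 2-fold higher. Of the 7, 0 were at least 2-fold lower, against 9.08% and 15.6% of all genes. KO against WT, 1 of the 6 was higher and 3 were lower in M0, where 33.2% of genes were called, 16.4% higher and 16.8% lower. In M1, 1 was higher (Arg2) and 1 lower (Slc7a2), where 11.6% were called, 5.93% higher and 5.71% lower. In M2, 0 were higher and 1 lower, where 3.56% were called, 1.21% higher and 2.34% lower. The comparisons of KO_M0 with WT_M0, KO_M1, KO_M2 and its AP-3-84 group share the same 3 KO_M0 vehicle libraries. In these, the 20 M1 markers summed to 122 to 234 CPM, against 1710 to 3510 CPM in WT_M0 vehicle, and 8 of the 18 measured were lower and 1 higher. The fibroblast markers Col1a1, Col1a2, Col3a1, Dcn and Pdgfra summed to 161 to 287 CPM against 22.5 to 26.2 CPM, nearly all of it Col1a1 and Col1a2. The part of either list in the KO_M0 levels was not tested. Between KO_M1 and WT_M1 vehicle libraries, the M1 marker sum was 30800 to 51300 against 73400 to 80400 CPM, although 7 of the 18 measured were higher in KO_M1 and 0 lower. The neutrophil sum was 958 to 2350 against 426 to 557 CPM, with 0 to 1 and 1 to 3 of its 6 markers at 0, and the fibroblast sum 89.9 to 123 against 16.6 to 41.9 CPM, with 0 and 0 to 1 of 5 at 0. The housekeeping sum was 22700 to 32300 against 48500 to 51700 CPM. Their part in the M1 values of Nos2, Arg2 and Slc7a2 was not tested.

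**Figure D2:**
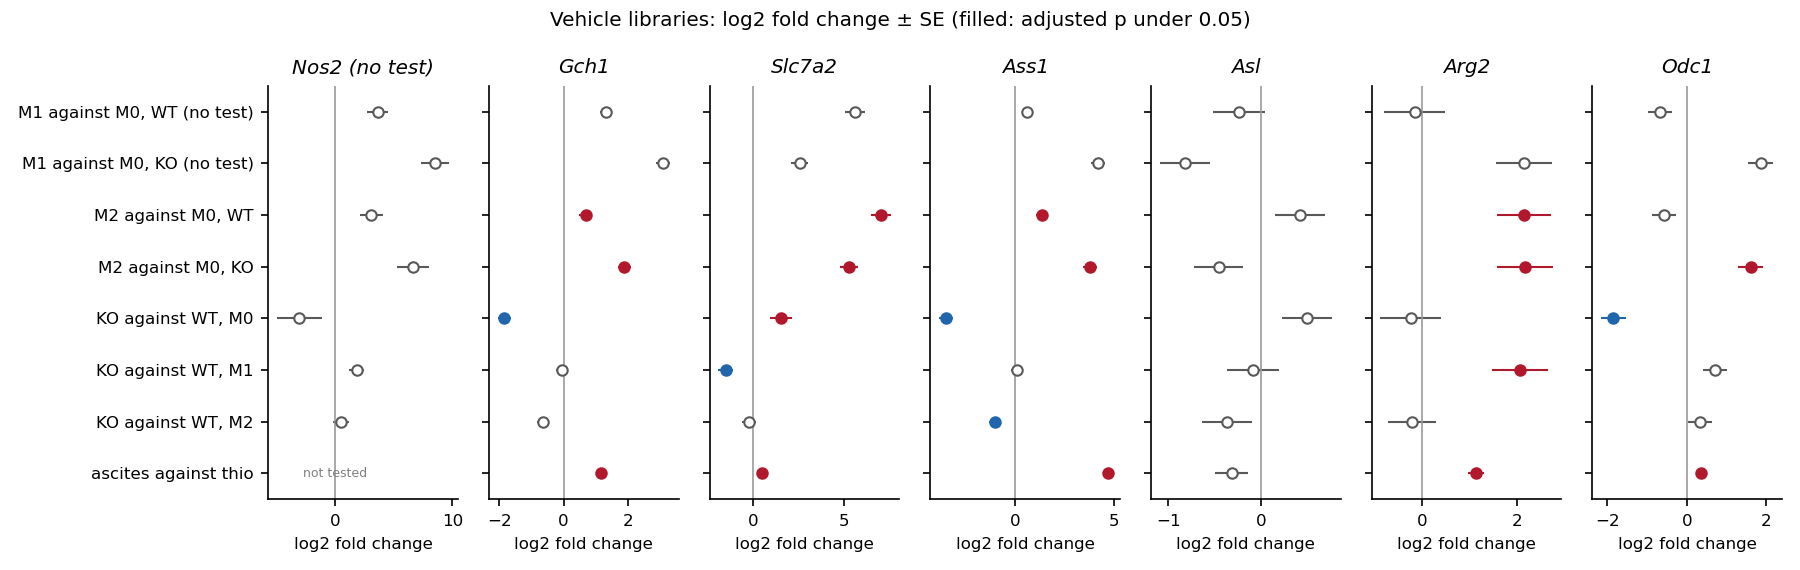
Log2 fold change of each gene between vehicle groups (edgeR fit, bars ± SE, n = 3 libraries per group), with a separate horizontal scale in each panel. Filled red points rose and filled blue points fell at an adjusted p under 0.05, and the 2 rows marked so and the Nos2 panel carry no test. Nos2 values against KO_M0, where it had 0 counts, depend on the prior count of the fit. Slc7a2 has M2 changes of 7.00 in WT and 5.26 in KO, and Asl has no filled point.

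The rest of the pathway was followed through 65 genes of arginine transport, tetrahydrobiopterin, citrulline and polyamine metabolism and signalling to Nos2, none of them one of the 7. In bone marrow-derived cells 51 of them were tested. In M2 against M0, 11 rose and 6 fell in WT, where 12.7% and 10.7% of all genes did. In KO 17 rose and 13 fell, where 20.1% and 18% of all genes did. Jak2, a kinase of the interferon-γ receptor, rose in both (log2 fold changes 2.02 and 1.62, adjusted p 1.12e-08 and 4.2e-07), and Smox, which oxidises spermine, fell in both (-0.90 and -1.38, adjusted p 0.00298 and 8.99e-06). The transcription factor Irf1 rose in WT_M2 (2.20, adjusted p 4.19e-07), where Cd14, a co-receptor for LPS (-1.90, adjusted p 8.11e-05), and Slc7a7, a subunit of a transporter that exports arginine (-1.28, adjusted p 0.000392), fell. In KO_M2, Eif5a, whose protein carries a modification made from spermidine, rose (1.29, adjusted p 1.68e-06), while Ifngr1, for a chain of the interferon-γ receptor (-1.57, adjusted p 1.47e-05), and Irf8 (-1.41, adjusted p 1.98e-08) fell. Slc7a1, the widely expressed cationic transporter related to Slc7a2, rose in KO_M2 (1.72, adjusted p 3.22e-06), and in WT_M2 the value was -0.36 (adjusted p 0.291). Without WT_M2 vehicle replicate 1 the WT calls of Jak2 (1.79), Irf1 (2.42), Smox (-1.25), Cd14 (-2.58) and Slc7a7 (-1.44) were kept, as was that of Arg1 (8.06).

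Between genotypes, 10 of the 51 were higher and 11 lower in KO_M0 than in WT_M0, where 16.4% and 16.8% of all genes were. Irf8 (log2 fold change 1.49, adjusted p 1.23e-07), Ifngr1 (1.64, adjusted p 1.46e-05), the kinase gene Jak1 (0.83, adjusted p 1.6e-05) and Irf1 (1.14, adjusted p 0.00171) were higher. Slc7a1 (-1.36, adjusted p 0.000138) and the transcription factor gene Cebpb (-0.69, adjusted p 0.00363) were lower. In M1, 3 were higher in KO and 4 lower, where 5.93% and 5.71% of all genes were. Ddah1, whose enzyme breaks down methylarginines that inhibit nitric oxide synthases, was higher in KO_M1 (log2 fold change 4.01 ± 0.939 SE, adjusted p 0.0056), with Slc7a1 (1.01, adjusted p 0.00718) and Azin2 (1.42, adjusted p 0.0119). The level of Ddah1 was low, at an average log2 CPM of 1.84, and the 95% interval of its log2 fold change was wide (2.17 to 5.85). Its highest adjusted p over the alternatives was 0.0484. Myd88, an adaptor of the LPS receptor (-0.91, adjusted p 0.00494), Oaz1, for an antizyme that restrains the Odc1 enzyme (-0.54, adjusted p 0.00761), and Ifngr2 (-0.67, adjusted p 0.0118) were lower. Of 12 alternatives, 6 ended the call of Azin2 (highest adjusted p 0.0773), 3 that of Ifngr2 (0.0883) and 2 that of Oaz1 (0.129). In M2, Gatm, whose enzyme uses arginine for creatine, was higher (1.67, adjusted p 0.0349) and Cat, for catalase, lower (-1.05, adjusted p 0.0185), both calls lost without WT_M2 vehicle replicate 1 (adjusted p 0.105 and 0.0541), without KO_M2 vehicle replicate 3 (adjusted p 0.351 and 0.133), and in 4 and 5 of 12 alternatives in all.

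In the peritoneal cells Ass1, Gch1, Arg2, Slc7a2 and Odc1 were higher in ascites than in thio vehicle libraries. Nos2 was not tested. Of the 6 genes tested, 5 were thus higher and 0 lower, where 33.7% of 16955 genes were called, 20.3% higher and 13.4% lower. Ass1 stood at 61.2, 77.6 and 69.8 CPM in ascites and at 3.45, 2.85 and 1.79 CPM in thio (log2 fold change 4.70 ± 0.181 SE, adjusted p 8.09e-12). Gch1 stood at 68.5, 71 and 63.7 against 31.7, 26.5 and 31.9 CPM (log2 fold change 1.17 ± 0.097 SE, adjusted p 3.11e-08). Arg2 stood at 19.2, 13.8 and 18.4 against 7.72, 7.89 and 7.65 CPM (log2 fold change 1.14 ± 0.173 SE, adjusted p 4.5e-05). These 3 genes did not overlap between the populations, nor did Slc7a2 and Odc1. The share of all genes without such overlap was not counted. Slc7a2 (122 to 128 against 80.8 to 96.4 CPM) and Odc1 (98.5 to 119 against 79 to 94.4 CPM) rose less, by log2 fold changes of 0.51 and 0.35 (adjusted p 0.000159 and 0.00496). Asl (8.39 to 10.5 against 9.55 to 13.3 CPM) was not called (log2 fold change -0.32 ± 0.179 SE, adjusted p 0.21).

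These 5 calls were kept without each library in turn. Of the other pathway genes, 27 of 56 tested rose and 13 fell, where 20.3% and 13.4% of all genes did. Among those that rose were Arg1 (82.5 ± 9.27 CPM in thio to 535 ± 55 CPM in ascites, log2 fold change 2.70, adjusted p 5.23e-13), the transporter gene Slc7a1 (2.13, adjusted p 3.53e-11) and Irf1 (1.68, adjusted p 3.54e-12). Cat (-1.08, adjusted p 6.42e-09), Azin1 (-0.82, adjusted p 1.28e-06) and Irf8 (-0.28, adjusted p 0.00133) were among those that fell. Markers of epithelial, mesothelial or ID8 cells were higher in ascites as well: 8 such genes summed to 211 to 249 CPM in ascites vehicle and 2.98 to 4.98 CPM in thio vehicle libraries. Krt18 at 73.3 CPM and Krt8 at 51.6 CPM led that sum in ascites, where Epcam stood at 0.646 CPM. The part of such cells in the level of Ass1 and the other genes was not tested. Of the end words of Odc1, taken as above, 27.2% occur in other genes. Gm7993, which shares most of them, had 47 to 65 counts per peritoneal group beside 4295 counts or more of Odc1. For Slc7a2 that share was 3.84%, and Gm16195, which shares most of those words, had 546 to 814 counts per group beside 3005 or more of Slc7a2.

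Outside KO_M0 cells, 2 of the genes were called after AP-3-84, both in thio cells. There 1 of 6 tested rose and 1 fell, where 4.32% of 16955 genes were called, 2.51% higher and 1.82% lower. Slc7a2 fell from 96.4, 80.8 and 87.2 CPM to 74.9, 65.1 and 58.4 CPM (log2 fold change -0.41 ± 0.088 SE, adjusted p 0.011), with no overlap. Odc1 rose from 79, 80 and 94.4 CPM to 108, 107 and 103 CPM (log2 fold change 0.33 ± 0.0897 SE, adjusted p 0.048), also without overlap. The call of Slc7a2 was lost without thio AP-3-84 replicate 3 or vehicle replicate 1 (adjusted p 0.0571 and 0.0693), and that of Odc1 without any one library but vehicle replicate 3 (adjusted p 0.0899 to 0.214). Of the 56 other pathway genes 5 rose and 2 fell in thio. Slc7a1 rose by 1.07 on the log2 scale in the same cells (7.26 ± 0.295 to 15.3 ± 0.854 CPM, adjusted p 1.22e-05), and its response was smaller in ascites (difference -0.92, adjusted p 0.0168), a call that 7 of 18 alternatives ended (highest adjusted p 0.0668). Cat rose in thio (0.64, adjusted p 8.86e-05) and in ascites (0.79, adjusted p 9.49e-06), where it was the 1 pathway gene called. Cebpb rose in thio (0.55, adjusted p 0.000867), and Irf8 (-0.25, adjusted p 0.0285) and Ifngr1 (-0.25, adjusted p 0.049) fell, calls that 4 and 8 of 12 alternatives ended (highest adjusted p 0.137 and 0.186). In ascites cells 0 of 6 genes were called by edgeR and by DESeq2, 0 had an unadjusted p under 0.05, and 1.79% of genes were called. The responses of ascites and thio differed for 0 of 6 by edgeR and by DESeq2, with 1 (Slc7a2, difference 0.32, adjusted p 0.539) at an unadjusted p under 0.05 and 0.118% of genes called.

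**Figure D3:**
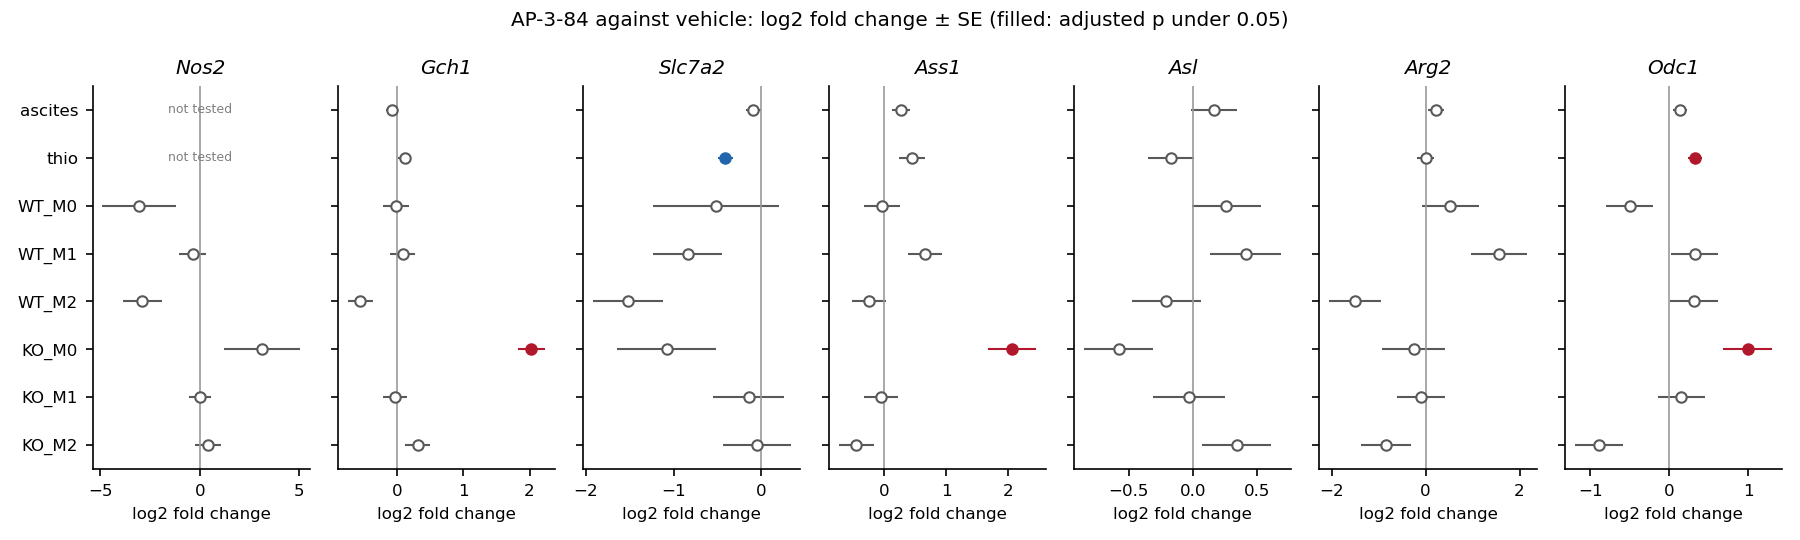
Log2 fold change of each gene after AP-3-84 in the 8 populations (edgeR fit, bars ± SE, n = 3 libraries per group), with a separate horizontal scale in each panel. Filled points are calls at an adjusted p under 0.05, red higher and blue lower, and Nos2 values where a group had 0 counts depend on the prior count of the fit. Gch1, Ass1 and Odc1 have filled points in KO_M0. The Nos2 panel is a description, without a test.

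In KO_M0 cells, 3 of 7 genes rose with AP-3-84 and 0 fell, where 20.7% of 11779 genes were called, 12.1% higher and 8.57% lower. Nos2 is among the 7, but its lack of a call is no test. Gch1 went from 11, 17.2 and 16.5 CPM to 61.1, 74.5 and 46.9 CPM (log2 fold change 2.03 ± 0.208 SE, adjusted p 3.91e-08). Ass1 went from 3.41, 4 and 2.43 CPM to 12.9, 19 and 9 CPM (log2 fold change 2.06 ± 0.387 SE, adjusted p 0.000336). Odc1 went from 62.4, 46.8 and 37.6 CPM to 98, 106 and 87.6 CPM (log2 fold change 0.99 ± 0.311 SE, adjusted p 0.0235). In each of the 3 the treated libraries lay above all vehicle libraries, and the share of all genes that did so was not counted. In WT_M0, none of the 3 was called, with log2 fold changes of -0.02, -0.03 and -0.50, and the responses of KO_M0 and WT_M0 differed by 2.05 for Gch1 (SE 0.282, adjusted p 1.56e-05), 2.09 for Ass1 (SE 0.483, adjusted p 0.00358) and 1.49 for Odc1 (SE 0.432, adjusted p 0.0174). In this test of the difference, 17% of genes were called, 10% higher and 6.99% lower. After AP-3-84, Gch1 in KO_M0 (60.8 ± 13.8 CPM) overlapped WT_M0 vehicle (53.6 ± 1.45 CPM), whereas Ass1 (13.6 ± 5.04 CPM) stayed under it (37.4 ± 4.1 CPM).

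**Figure D4:**
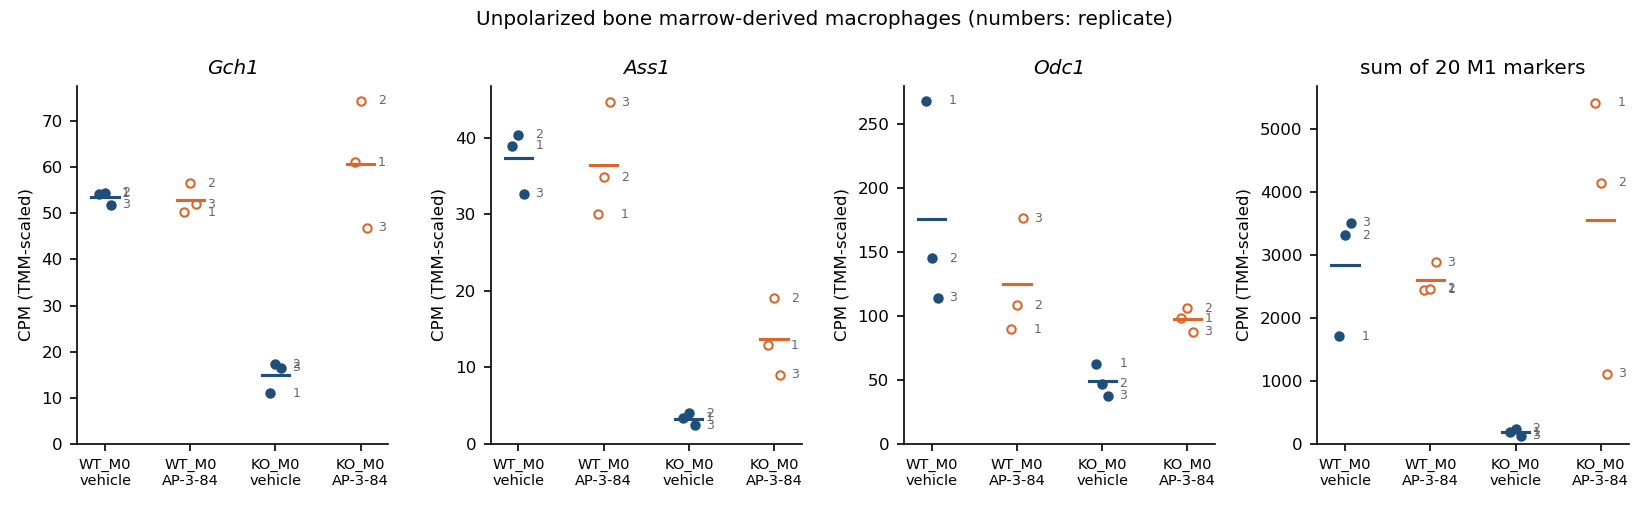
Gch1, Ass1, Odc1 and the sum of 20 M1 markers in each library of unpolarized cells, in TMM-scaled CPM on linear axes that start at 0. Points are libraries with their replicate number, filled for vehicle and open for AP-3-84, and bars are means of 3. In KO_M0 all 4 measures are higher after AP-3-84, and replicates 1 and 2 lie above replicate 3.

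Replicates 1 and 2 of KO_M0 AP-3-84 led these changes. With both left out, an alternative chosen after seeing the data that leaves 1 treated library whose spread is assumed to be that of the other groups, 1 of the 3 calls was kept. Gch1 then had a log2 fold change of 1.67 (adjusted p 2.33e-04), Ass1 1.47 (adjusted p 0.337) and Odc1 0.85 (adjusted p 0.634). The calls among all genes went from 2440 to 67. The difference from WT_M0 was then 1.68 for Gch1 (adjusted p 4.05e-03), 1.5 for Ass1 (adjusted p 0.298) and 1.35 for Odc1 (adjusted p 0.313). The call of Odc1 was also lost without KO_M0 AP-3-84 replicate 1 or 2 or vehicle replicate 2 or 3 (adjusted p 0.0648, 0.0995, 0.0681 and 0.107). Its difference from WT_M0 was lost without KO_M0 AP-3-84 replicate 2, KO_M0 vehicle replicate 3, WT_M0 AP-3-84 replicate 1 or WT_M0 vehicle replicate 1 (adjusted p 0.0528, 0.0524, 0.0636 and 0.091).

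Other genes moved in the same KO_M0 libraries. The M1 markers summed to 5420, 4150 and 1110 CPM after AP-3-84 against 122 to 234 CPM in vehicle, and 8 of 18 rose and 0 fell. The housekeeping sum was 31800 to 61300 CPM against 22600 to 26600 CPM, and the fibroblast sum 50.6 to 224 CPM against 161 to 287 CPM. The part of these in the rises of Gch1, Ass1 and Odc1 was not tested. Of the 51 other pathway genes tested, 10 rose and 7 fell, where 12.1% and 8.57% of all genes did. Slc7a1 rose most surely (17.6 to 22.2 CPM in vehicle, 59.3 to 137 CPM after AP-3-84, log2 fold change 2.50, adjusted p 3.91e-08) and kept its call without both libraries (1.64, adjusted p 9.46e-04). Srm, for spermidine synthase, and Azin1, for an inhibitor of the antizymes that restrain the Odc1 enzyme, rose as well (log2 fold changes 1.62 and 1.56, adjusted p 3.15e-05 and 8.79e-06), calls lost without both libraries (adjusted p 0.408 and 0.353). Irf8 (-0.68, adjusted p 0.00143), the arginine sensor gene Slc38a9 (-1.05, adjusted p 0.00112) and Padi2, whose enzyme turns protein-bound arginine into citrulline (-1.91, adjusted p 0.0106), fell, and these calls were lost too (adjusted p 0.498 to 0.853), that of Padi2 also without replicate 1 or 2 alone.

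In the 5 other bone marrow-derived populations edgeR called 0 of 7 genes after AP-3-84, and for Nos2 this is no test. In WT_M0 and KO_M1 0 also had an unadjusted p under 0.05, where 0.144% and 0% of genes were called, and DESeq2 called 0. In WT_M1, 3 had an unadjusted p under 0.05 (Slc7a2, Ass1 and Arg2), DESeq2 called 0 and 0.017% of genes were called. There Arg2 stood at 4.17, 1.06 and 3.52 CPM in vehicle and 7.37, 8.32 and 10.2 CPM after AP-3-84 (log2 fold change 1.56 ± 0.594 SE, adjusted p 0.496), which did not overlap. In KO_M2, 1 had an unadjusted p under 0.05 (Odc1, 84.9, 155 and 209 CPM in vehicle and 89.2, 76.1 and 77.1 CPM after AP-3-84, adjusted p 0.222), DESeq2 called 0 and 0.0509% of genes were called. In WT_M2, 4 had an unadjusted p under 0.05 (Nos2, Gch1, Slc7a2 and Arg2), DESeq2 called 1 (Slc7a2) and 1.21% of genes were called, 0.229% higher and 0.976% lower. Most Nos2 counts of WT_M2 vehicle were in replicate 1. Nos2 also passed the filter only through M1 and M2 libraries, so its p-value here is not read as a result. Of the 51 other pathway genes, Jak2 (-0.86, adjusted p 0.0218) and Cd14 (-1.28, adjusted p 0.0473) fell in WT_M2, calls lost without WT_M2 vehicle replicate 1 (adjusted p 0.162 and 0.393), and 0 rose.

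Slc7a2 in WT_M2 came nearest to a call. Its vehicle libraries held 607, 406 and 221 CPM and its AP-3-84 libraries 133, 128 and 168 CPM, without overlap (log2 fold change -1.52 ± 0.397 SE, adjusted p 0.0542). DESeq2 called it (adjusted p 0.00629), as did edgeR with median-ratio size factors (adjusted p 0.0468), while without WT_M2 vehicle replicate 1 the value was -1.14 (adjusted p 0.221). Slc7a2 also stood lower after AP-3-84 in WT_M1 (155, 184 and 129 against 126, 85.7 and 50.3 CPM, log2 fold change -0.84 ± 0.397 SE, adjusted p 0.662). Its log2 fold changes ran from -1.52 to -0.05 over the 8 populations, with 1 call, that in thio. In the same WT_M2 comparison 8 of 18 M1 markers fell, where 0.976% of all genes did. The sum of the 20 was 388 to 402 CPM after AP-3-84 against 760 to 6960 CPM in vehicle, and their part in the Slc7a2 values was not tested. The KO and WT responses differed for 0 of 7 genes by edgeR in M1 (1 at an unadjusted p under 0.05, Arg2, 0 by DESeq2, 0.00849% of genes called). They differed for 0 of 7 by edgeR in M2 (4 at an unadjusted p under 0.05, namely Nos2, Gch1, Slc7a2 and Odc1, 1 by DESeq2, 1.77% of genes called, 1.08% higher and 0.688% lower). The Nos2 value in M2 uses the same WT_M2 libraries, and in M1 and M2 alike Nos2 has the limit given above. Of the other pathway genes, the M2 responses differed for Irf1 (1.58, adjusted p 0.0209) and Jak2 (1.22, adjusted p 0.0209), and that of Jak2 was not called without WT_M2 vehicle replicate 1 (adjusted p 0.0504). Of 18 alternatives, 7 ended the call of Irf1 (highest adjusted p 0.0932, without KO_M2 vehicle replicate 3) and 5 that of Jak2 (highest 0.0868), leaving out the same library among them.

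The 12 bone marrow-derived group means of log2 CPM show which genes had the pattern most like each of the 7. The points come from the same 36 libraries, fitted together, and share their group structure, and the correlations (Pearson r) are given as a description. For Nos2 they were Nsun5 (0.949), Ptgs2 (0.935), the inducible cyclooxygenase, and Igf2bp1 (0.929). For Gch1 they were Nipa1 (0.964) and Pde10a (0.963), for Slc7a2 Fcgr2b (0.976), the inhibitory Fc receptor, and Jak2 (0.965), and for Ass1 Pla2g4a (0.963), a phospholipase that frees arachidonic acid, and Tarm1 (0.948). For Asl they were Hsd17b11 (0.965) and Spsb2 (0.937), for Arg2 Stfa1 (0.889) and Slc25a44 (0.886), and for Odc1 Chaf1a (0.98) and Mcm7 (0.972), both genes of DNA replication. Among the 7 themselves the highest was 0.822 between Gch1 and Ass1, with 0.777 between Ass1 and Odc1 and 0.723 between Nos2 and Gch1. Asl ran against Odc1 (-0.664), Gch1 (-0.625) and Nos2 (-0.556).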

How the data were processed

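RNA of 48 libraries was counted by QuantSeq 3′ sequencing, which, per the labels' protocols, used 100 ng of total RNA and single reads of 75 bases. The deposited values are raw counts per gene, whole numbers. The submitters' processing notes name RSEM, Bowtie2 and DESeq2 without roles or versions, so the counts may be rounded estimates. Which build, annotation and handling of molecular identifiers they used was not given in the sources used here.

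Tests across genes were those of edgeR 4.0.16 (R 4.3.3; glmQLFit and glmQLFTest, robust, TMM, filterByExpr by group, 1 mean per group, two-sided), with the 12 peritoneal and 36 bone marrow-derived libraries fitted apart and p-values adjusted by Benjamini-Hochberg over all 16955 and 11779 genes tested, and called under 0.05. SE is the log2 fold change divided by the root of F. CPM used TMM-scaled totals. Of 51789 gene IDs, 51596 had a symbol. Coordinates are GENCODE M21 (GRCm38) matched by ID. Tests were checked on simulated counts. The members and gene lists were chosen with earlier results of these data known. All 7 members are named in every comparison, with, from the pathway lists, Arg1, Slc7a1 and Irf1 and up to 3 called genes per direction of lowest p, printed for the contrasts in which the text describes the lists, and the 2 or 3 genes of most similar pattern. Some genes under that rule are not reported here. Genes shown for a check of labels or cell types fall outside that rule.

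Replicate numbers were checked for pairing: correlations of same-numbered deviations ran from -0.327 to 0.375, and all 3 were over 0.1 in 1 of 16 comparisons of groups (M2 against M0 in WT), where the block ended no member's call. No 2 libraries were identical, and replicates differed by a mean chi-square per gene of 2.51 to 38.7. Alternatives were median-ratio size factors, total counts only, no filter, DESeq2 1.42.0, only the groups compared, a replicate block and each library left out.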

Additional observations from a re-analysis of the deposited data

Results flagged for a closer look

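The responses to AP-3-84 of KO_M0 and WT_M0 cells differed by the test of the difference itself for Gch1 (2.05 on the log2 scale, edgeR adjusted p 1.56e-05), Ass1 (2.09, edgeR adjusted p 0.00358) and Odc1 (1.49, edgeR adjusted p 0.0174), and that of Gch1 alone was kept without KO_M0 AP-3-84 replicates 1 and 2. Slc7a2 was higher in KO than in WT cells in M0 (log2 fold change 1.53) and lower in M1 (-1.5), every library of a genotype lying on one side. Odc1 lay lower in KO in M0 (-1.84) and higher in M1 (0.7, not called, edgeR adjusted p 0.127). For these last pairs the difference between M0 and M1 was not tested.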

How the results depend on the processing

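Over 94 tested log2 fold changes of members and named pathway genes, 1210 alternative values were computed: 1076 kept direction and side of the threshold, 130 lost the call, 4 gained one and 0 reversed. Counts of the 7 members called moved as follows. Nos2 is among the calls counted in KO against WT in M1 and in M2 against M0 in WT. It passed the filter only through M1 and M2 libraries, so these counts are no test of Nos2. With no filter on low counts they became 1 in AP-3-84 against vehicle in KO_M2, 2 in WT_M1 and 3 in WT_M2, from 0 each, 3 in the KO and WT difference of that response in M2, from 0, and 2 in KO against WT in M2, from 1. DESeq2 gave 1 in WT_M2, 1 in the M2 difference and 2 in KO against WT in M2. Median-ratio size factors gave 1 in thio, from 2, 1 in WT_M2 and 2 in KO against WT in M2. Total counts gave 1 in thio and 0 in KO against WT in M2, and shifted the median of all genes by up to 0.27 upward and -0.3 downward. Fits of only the groups compared gave 0 in KO against WT in M2 and 2 in M2 against M0 in WT, from 5. Without KO_M0 AP-3-84 replicates 1 and 2 the response and its difference from WT_M0 had 1 each, from 3. Leaving out 1 library gave 2 to 4 in KO_M0, 0 to 1 in KO_M2, 0 to 2 in thio, 0 to 2 in WT_M2, 0 to 1 in the M2 difference, 0 to 2 in KO against WT in M1, from 3, 0 to 2 in M2 and 3 to 5 in M2 against M0 in WT. The cause of these moves was not tested. As numbers do not pair the libraries by the labels, the replicate block is an alternative: it gave 1 call in thio, where Odc1 had an adjusted p of 0.0951, and 0.0561 for Slc7a2 in KO against WT in M0. Depth limits Nos2: its 1 to 70 counts in the polarized vehicle libraries set the width of its intervals.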
